A study of Mus musculus with 8 samples.

Results

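The genes described here encode the mitochondrial respiratory chain and the tricarboxylic acid (TCA) cycle. The set was a fixed list of 43 nuclear genes: 15 of complex I, 4 of complex II, 6 of complex III, 6 of complex IV, cytochrome c, 2 of complex V and 9 of the TCA cycle. A gene was kept where at least 1 of its probes had a detection p under 0.01 on at least 4 of 8 arrays, which left 40 of the 43 members among 8252 genes tested. The 43 genes had 65 probes on the array, of which 50 passed.

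The enzymes of the TCA cycle, in the mitochondrial matrix, oxidise acetyl-CoA and store the electrons as NADH and, through succinate, as reduced coenzyme Q. Complexes I and II hand those electrons through coenzyme Q, complex III, cytochrome c and complex IV to oxygen, and the proton gradient that complexes I, III and IV build drives the ATP synthase, complex V. In dendritic cells and macrophages, endotoxin is known to shift energy use toward glycolysis and to alter the TCA cycle, with succinate and itaconate as the best known products.

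Dendritic cells were sorted from reporter mice of the genotype CCL17E/+ on the C57BL/6 background, aged 2 to 5 months, whose Ccl17 reporter makes cells expressing this chemokine fluoresce with EGFP. All mice had received 100 µg of LPS, a bacterial endotoxin, 15 h before the organs were taken. The lymph node (LN) group held EGFP-positive cells from mesenteric and peripheral nodes, and the spleen group held EGFP-negative cells sorted alongside from those animals, with 4 arrays each. Both gates took cells lacking NK1.1 and CD8alpha and carrying CD11c and CD11b. Organ and CCL17 status cannot be told apart, and how many mice stand behind an array is not stated. The p-values therefore reflect only the variation among these arrays, part of which may be technical. Bulk RNA also cannot tell fewer cells of a type from less RNA per cell.

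Mean bead intensity per array was 334 to 521 in LN and 239 to 510 in spleen, the lowest being spleen replicate 4. That array had a mean correlation of 0.895 with the other spleen arrays, which reached 0.947 to 0.956, and the LN arrays reached 0.974 to 0.979, so values without it stand beside the results below. Ccl17, the gene of the sort, was higher in LN by 6.27 on the log2 scale, which checks the labels. Of the gate's own genes, Itgax (CD11c) reached the detection limit on 3 LN and 3 spleen arrays, Itgam (CD11b) on 1 array, and the genes of CD8alpha and NK1.1 on 0. Of 5 measured erythroid markers 5 were lower in LN, with a summed intensity of 196 to 454 in LN arrays and 5086 to 39813 in spleen arrays. Lower in LN too were 5 of 8 plasmacytoid markers (sums of 5846 to 7349 in LN and 16117 to 35834 in spleen), 3 of 4 natural killer markers (1894 to 3950 and 2478 to 4619) and 1 of 6 macrophage markers (1686 to 2087 and 3934 to 5245). Over all genes tested 7.59% were called lower in LN at an adjusted p under 0.05, and the macrophage count rests on 1 gene. The B cell list had 1 tested gene, not called, and the T cell and neutrophil lists had 0. The part of these other cells in the values below was not tested.

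Most respiratory chain and TCA cycle transcripts were not called different between LN CCL17-positive and splenic CCL17-negative cells, and 2 of the 40 changed. Cox5a, a subunit of complex IV, was higher in LN, and Idh3a, the catalytic subunit of NAD-dependent isocitrate dehydrogenase, was lower. Over all genes tested 15.6% were called at an adjusted p under 0.05 (limma, Benjamini-Hochberg over all 8252 genes), 7.99% higher and 7.59% lower in LN. The members' median log2 fold, LN over spleen, was 0.22, against 0.03 for all genes, and 30 of 40 members (75%) had a positive fold, against 52.4% of all genes. For 29 members (72.5%) the 95% interval of the fold lay within 2-fold in either direction, as it did for 54.7% of all genes, and for 8 it lay within 1.5-fold.

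The lean of the members toward LN was small and rested in part on 1 array. Without spleen replicate 4 the median was 0.07, against -0.0030 for all genes, and 25 of 40 folds were positive. Then 6 members were called, 4 higher and 2 lower, where 24.1% of all genes were called, 12.2% higher and 11.9% lower. With replicate number as a block, 5 members were called, 3 higher and 2 lower, against 21.1% of all genes (11.2% higher, 9.94% lower). With the block but no replicate 4 pair 12 members were called, 9 higher and 3 lower, against 31.7% of all genes (15.9% higher, 15.8% lower). The members' share of calls, both directions together, did not exceed that of all genes in any of these settings. By direction, the share higher in LN did so with the block but no replicate 4 pair (9 of 40, against 15.9%). The share lower in LN was below that of all genes there (3 of 40, against 15.8%). Scaling arrays by their median in place of quantiles moved the median fold of all genes to 0.23 and of the members to 0.37, and called 0 members, against 11.4% of all genes.

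**Figure D1:**
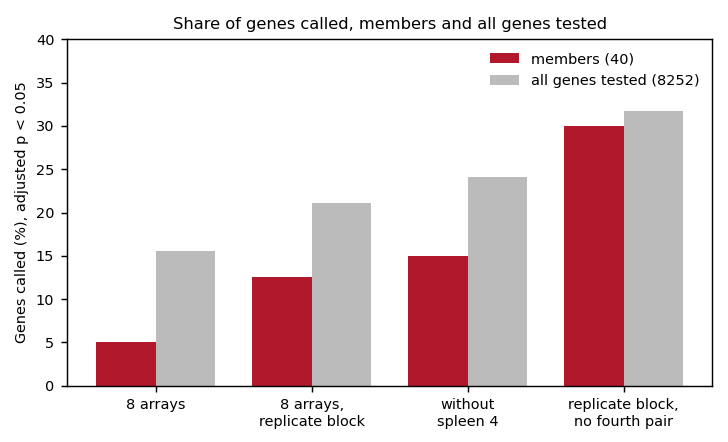
Share of genes called at an adjusted p under 0.05 (vertical axis, percent) among the 40 members (red) and all 8252 genes tested (grey), LN against spleen, under 4 settings. The members' share was 5%, 12.5%, 15% and 30% from left to right, against 15.6%, 21.1%, 24.1% and 31.7% of all genes.

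**Figure D2:**
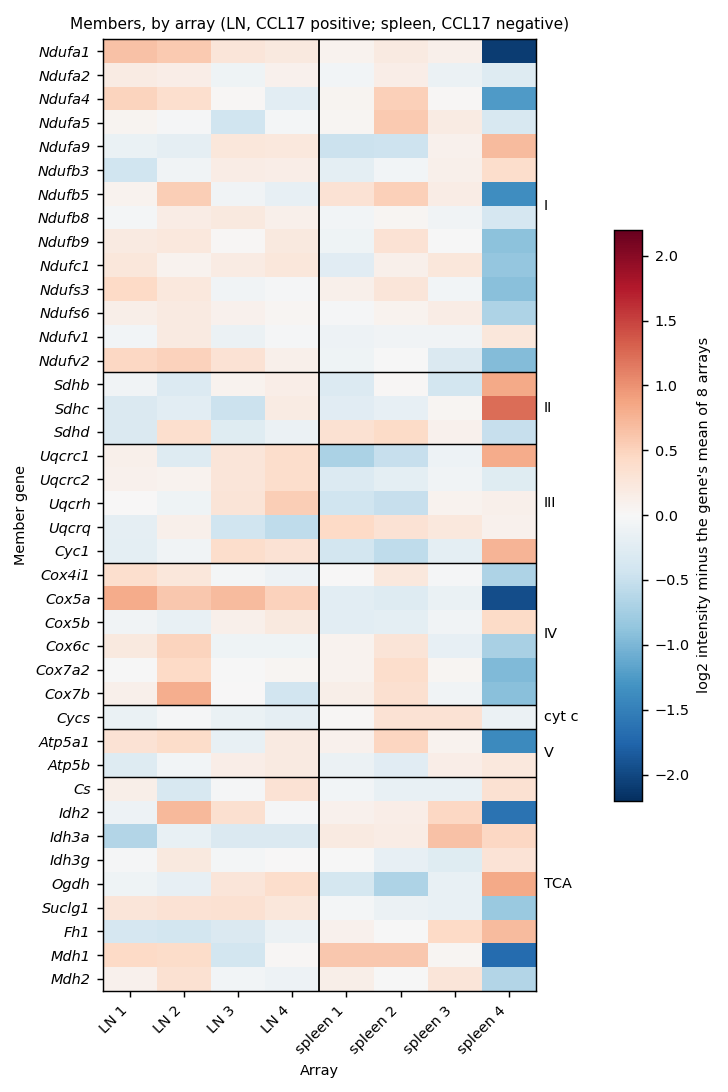
Log2 intensity of each tested member (rows, by complex) on each array (columns, LN replicates left and spleen replicates right of the line), as the difference from the gene's mean over 8 arrays. Cox5a is high on the 4 LN arrays, Idh3a is low there, and spleen replicate 4 stands apart from the other spleen arrays in many rows of complexes I and IV.

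Cox5a encodes a nuclear subunit of cytochrome c oxidase, the complex that passes electrons to oxygen. Its log2 intensity was 13.33, 13.11, 13.22 and 13.02 in LN cells and 12.28, 12.24, 12.37 and 10.56 in splenic cells. The groups did not overlap, and the lowest value was that of spleen replicate 4. The log2 fold was 1.31 ± 0.36 (SE, n = 4 arrays each; 95% interval 0.51 to 2.10; limma adjusted p = 0.0331), 2.48-fold. Without spleen replicate 4 it was 0.87 (adjusted p = 0.000387). The call was lost on leaving out any 1 LN array, with an adjusted p of 0.0701 to 0.0933. An exact permutation test over arrays, made for all 40 members and not adjusted, gave p = 0.0286 for Cox5a, two-sided, the smallest that 70 arrangements allow. The 250 bases before a RefSeq start of Cox5a on mouse build GRCm38.p6 are shown because this is the member with the largest fold. Capitals mark the 26 CpG steps, and the GC content is 63.2%.
Cox5a, chr9:57520982-57521231, plus strand: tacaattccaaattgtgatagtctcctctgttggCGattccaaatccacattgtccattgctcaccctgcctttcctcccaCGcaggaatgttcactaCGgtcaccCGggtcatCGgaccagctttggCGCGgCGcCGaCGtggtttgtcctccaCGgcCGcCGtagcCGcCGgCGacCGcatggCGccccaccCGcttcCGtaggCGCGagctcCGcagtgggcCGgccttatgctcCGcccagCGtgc

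The other 5 tested complex IV members were not called. All had a positive fold, from 0.05 ± 0.18 for Cox5b, a subunit on the matrix side, to 0.26 ± 0.24 for Cox6c, with Cox7b at 0.26 ± 0.33, Cox4i1 at 0.23 ± 0.21 and Cox7a2 at 0.23 ± 0.30 (SE, n = 4 each). Cox4i1 is the common form of subunit IV, and Cox6c, Cox7a2 and Cox7b encode small accessory subunits. Cox7b was near the detection limit, being detected on 3 LN and 2 spleen arrays. For 5 of the 6 complex IV members spleen replicate 4 was the lowest of the 8 arrays. Without it the complex IV median was 0.06, against 0.24 with it, and Cox7a2 and Cox7b had folds of -0.06 and -0.0088.

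A wider list of the complex held no further call. Of 8 other complex IV subunits and isoforms 4 were tested and 0 were called, with a median of 0.27. Cox7a2l, which takes part in assembling respiratory supercomplexes, had the largest fold of that list, 0.51 ± 0.21 (adjusted p = 0.145), and was called higher without spleen replicate 4. No test compared Cox5a with the other subunits.

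In the TCA cycle 9 members were tested, and 1 changed, where 15.6% of all genes were called. Idh3a had log2 intensities of 6.75, 7.22, 7.06 and 7.07 in LN cells and 7.58, 7.55, 8.03 and 7.84 in splenic cells, with no overlap between the groups. The log2 fold was -0.72 ± 0.21 (SE, n = 4 each; 95% interval -1.18 to -0.26; limma adjusted p = 0.0407), and the exact permutation p was again 0.0286. Idh3a was -0.69 without spleen replicate 4 and stayed called there (adjusted p = 0.0302). Its call was lost on leaving out any 1 of the other 7 arrays (adjusted p 0.0593 to 0.129) and with no filter on dim probes (adjusted p = 0.110). Idh3g, the regulatory gamma subunit of the same enzyme, had a fold of 0.08 ± 0.17 with its brighter probe and 0.38 ± 0.19 with its dimmer probe, and neither was called.

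Other steps of the cycle went both ways without passing the test. Suclg1, a subunit of succinyl-CoA ligase, had 12.00, 12.05, 12.08 and 11.99 in LN cells and 11.70, 11.61, 11.57 and 10.93 in splenic cells. Its groups did not overlap, but the fold of 0.58 ± 0.19 missed the threshold (adjusted p = 0.0657). It was called with the replicate block (adjusted p = 0.0404) and without spleen replicate 4, where the fold was 0.40 (adjusted p = 0.0253). Fh1, the fumarase that turns fumarate into malate, lay the other way, at 9.13, 9.08, 9.18 and 9.37 in LN cells and 9.59, 9.48, 9.92 and 10.18 in splenic cells. The LN values were all below the spleen values, with a fold of -0.61 ± 0.20 (adjusted p = 0.0704, and 0.0371 with the replicate block).

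The remaining 5 cycle enzymes were not called. Cs, the citrate synthase that opens the cycle, had a fold of 0.04 ± 0.20, and Ogdh, of the 2-oxoglutarate dehydrogenase complex, 0.19 ± 0.31. The malate dehydrogenases Mdh2 of the matrix and Mdh1 of the cytosol had 0.12 ± 0.22 and 0.23 ± 0.47, and Idh2, the NADP-dependent isocitrate dehydrogenase of mitochondria, 0.46 ± 0.42. The last value rested on 1 array: Idh2 was 7.42 to 8.24 in LN cells, 7.62 to 7.99 on spleen replicates 1 to 3 and 5.90 on spleen replicate 4. Of 6 further enzymes of the cycle 4 were tested and 0 called, with Dlst, another part of the Ogdh complex, furthest from 0 at -0.24 ± 0.15 (adjusted p = 0.348).

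**Figure D3:**
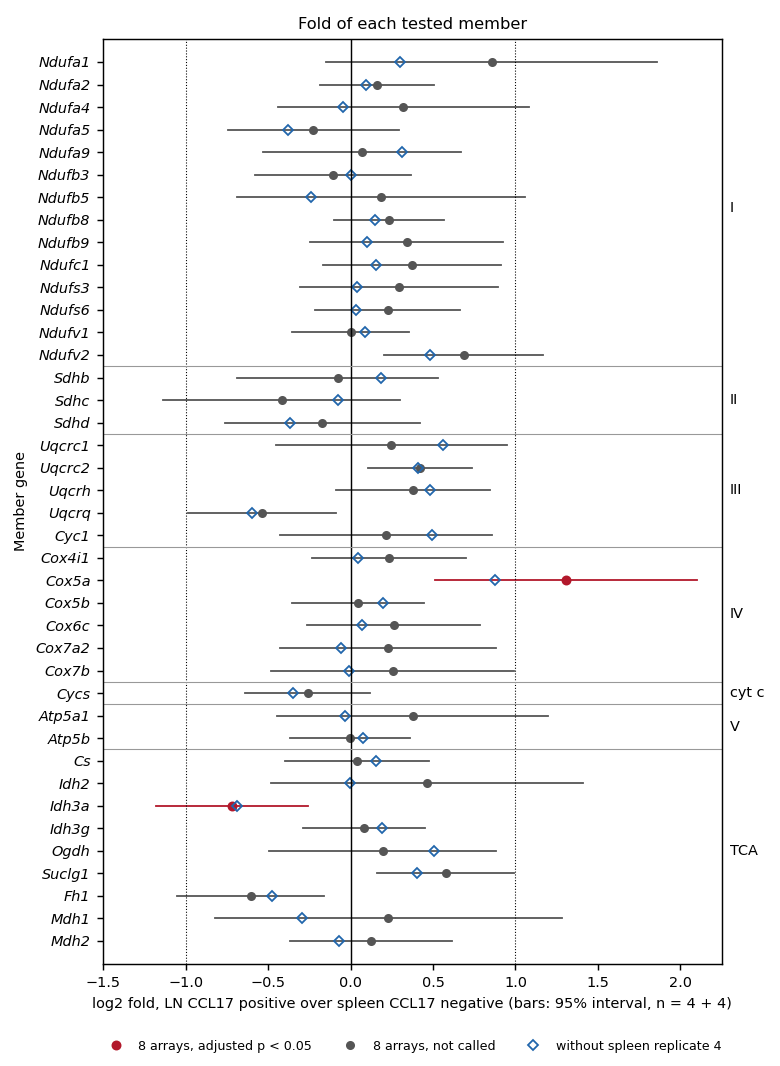
Log2 fold of LN over spleen for each tested member (rows, by complex), with the 95% interval over 4 arrays each (circles, red where adjusted p is under 0.05) and the fold without spleen replicate 4 (diamonds). Dotted lines mark 2-fold. Cox5a lies at 1.31 and Idh3a at -0.72. The diamonds of Ndufa1 (0.30) and Cox5a (0.87) lie well left of their circles.

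Complex I, which takes electrons from NADH, had 14 tested members of 15, and 0 were called. Their folds ran from -0.23 ± 0.23 for Ndufa5, a subunit of the matrix arm, to 0.86 ± 0.45 for Ndufa1, a membrane subunit needed for assembly, with a median of 0.23 and 12 of 14 positive. Ndufv2, which carries an iron-sulfur cluster of the NADH-oxidising module, was closest to the threshold. It had 12.59, 12.65, 12.46 and 12.25 in LN cells and 12.05, 12.14, 11.83 and 11.19 in splenic cells, so the groups did not overlap. The fold was 0.69 ± 0.22 (adjusted p = 0.0597). Ndufv2 was called with the replicate block (adjusted p = 0.0130) and without spleen replicate 4 (0.48, adjusted p = 0.0276).

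Ndufv1, which holds the NADH and flavin site and pairs with Ndufv2, had a fold of 0.0015 ± 0.16, with an interval from -0.35 to 0.36. Ndufa1 was 12.13, 12.07, 11.76 and 11.70 in LN cells and 11.56, 11.68, 11.60 and 9.40 in splenic cells. The groups were apart, with spleen replicates 1 to 3 close below LN, and without spleen replicate 4 the fold was 0.30 (adjusted p = 0.154). The other matrix-arm genes Ndufs3, Ndufs6, Ndufa2 and Ndufa9 had folds of 0.29 ± 0.27, 0.22 ± 0.20, 0.16 ± 0.16 and 0.07 ± 0.27. The membrane-arm genes Ndufb3, Ndufb5, Ndufb8, Ndufb9 and Ndufc1 had -0.11 ± 0.21, 0.19 ± 0.39, 0.23 ± 0.15, 0.34 ± 0.26 and 0.37 ± 0.24. Ndufa4, formerly placed in complex I and now known as a subunit of complex IV, had 0.32 ± 0.34.

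Of the 14 complex I genes 10 had their lowest value on spleen replicate 4. Without that array its median was 0.09, and the interval lay within 2-fold for 14 of 14 genes. Of 22 further complex I subunits 19 were tested and 0 called, with a median of 0.10. Ndufc2 had the largest fold of that list, 0.50 ± 0.26 (adjusted p = 0.251). Ndufs1, the largest subunit of the complex, had 1 probe, which was not detected on any array, so its level is unknown here.

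Complex II, the succinate dehydrogenase shared by the chain and the cycle, had 3 tested members. Sdhb, the iron-sulfur subunit, had a fold of -0.08 ± 0.27, and the membrane anchors Sdhc and Sdhd had -0.42 ± 0.32 and -0.17 ± 0.27. None was called, and with median scaling the folds of Sdhb and Sdhd were above 0. Sdhc was 9.57, 9.66, 9.41 and 10.07 in LN cells and 9.63, 9.71, 9.92 and 11.12 in splenic cells. Its highest value was on spleen replicate 4, without which the fold was -0.08. The probe of Sdha, the flavoprotein that oxidises succinate, was not detected on any array.

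Complex III, which moves electrons from coenzyme Q to cytochrome c, had 5 tested members. The core proteins Uqcrc1 and Uqcrc2 had folds of 0.25 ± 0.32 and 0.42 ± 0.14, the hinge protein Uqcrh 0.38 ± 0.21, the cytochrome c1 gene Cyc1 0.21 ± 0.29 and the small subunit Uqcrq -0.54 ± 0.20. In the 8-array comparison 0 were called. Uqcrc2 was 12.44, 12.42, 12.62 and 12.74 in LN cells and 12.05, 12.13, 12.27 and 12.09 in splenic cells, without overlap (adjusted p = 0.0737), and it was called without spleen replicate 4 (0.41, adjusted p = 0.0416). Uqcrq was 8.76, 9.07, 8.52 and 8.41 in LN cells and 9.40, 9.28, 9.19 and 9.05 in splenic cells. It overlapped at 1 array (adjusted p = 0.109) and was called lower without spleen replicate 4 (-0.60, adjusted p = 0.0390).

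Subunits of this complex had folds on both sides of 0. With the block and without the pair of replicate 4, all 5 complex III members were called, Uqcrc1, Uqcrc2, Uqcrh and Cyc1 higher and Uqcrq lower, in a comparison that called 31.7% of all genes. None of the 5 was at its minimum on spleen replicate 4, and Uqcrc1 and Cyc1 had their highest value there. Without that array the complex III median was 0.48, against 0.25 with it. Uqcrc1 and Cyc1 then had folds of 0.56 and 0.50, neither called, and Uqcrq had -0.60. Of 3 further subunits 2 were tested, with a median of 0.42, and Uqcr11 had 0.54 ± 0.19 (adjusted p = 0.0888, and 0.0439 with the replicate block). The 2 probes of Uqcrfs1, the Rieske iron-sulfur protein, were not detected on any array.

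Cycs, the cytochrome c that shuttles electrons from complex III to complex IV, was 9.78, 9.89, 9.78 and 9.72 in LN cells and 9.95, 10.24, 10.24 and 9.79 in splenic cells. The groups overlapped at spleen replicate 4, and the fold was -0.26 ± 0.17 (adjusted p = 0.386).

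Complex V, the ATP synthase, had 2 members, the catalytic core subunits alpha and beta. Atp5b, the beta subunit, had a fold of -0.0031 ± 0.16, with an interval from -0.36 to 0.36. Atp5a1, the alpha subunit, was the member whose probes differed most. Its brighter probe had a fold of 0.38 ± 0.37 and its dimmer probe -0.37 ± 0.25. Without spleen replicate 4 the brighter probe had -0.03 and the dimmer -0.58 (adjusted p = 0.0443 over all probes). The 2 probes of Atp5a1 thus had opposite signs with that array and the same sign without it. Why the probes differ was not tested. Among the 10 members with 2 passing probes the next largest gaps were 0.30 for Idh3g and 0.13 for Cox5b. In the fit on all passing probes 1 of the 50 member probes was called, that of Cox5a, against 12.4% of all passing probes.

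Of 15 other ATP synthase genes 14 were tested, 13 had a positive fold, and 2 changed, both higher in LN. Over all genes tested 52.4% had a positive fold and 15.6% were called, and 2 of 14 is not above the share called. Atpif1, the inhibitor that stops the synthase from running backwards, had 0.59 ± 0.16 (adjusted p = 0.0274), and Atp5d, the delta subunit of the rotor stalk, 0.54 ± 0.16 (adjusted p = 0.0454). The groups did not overlap for either gene. Atpif1 was 13.11 to 13.55 in LN cells and 12.67 to 13.05 in splenic cells, and Atp5d was 10.64 to 10.93 in LN cells and 10.08 to 10.40 in splenic cells. The calls held in 11 and 9 of 21 alternative settings.

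**Figure D4:**
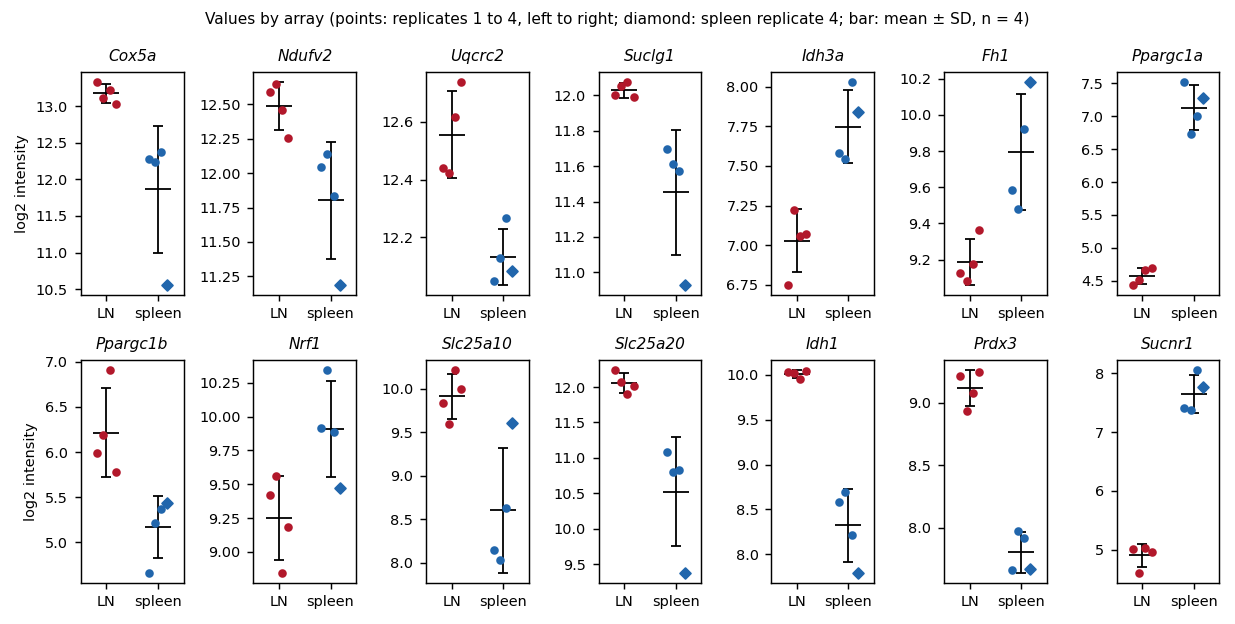
Log2 intensity by array for members and related genes (panels), LN left in red and spleen right in blue, with mean ± SD over 4 arrays; each panel has its own axis, which does not start at 0, and the diamond is spleen replicate 4. Cox5a, Ndufv2, Uqcrc2 and Suclg1 lie higher in LN on all arrays, and Idh3a, Fh1, Ppargc1a and Sucnr1 lie lower.

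Over the 40 members, 5 had all LN values above all spleen values (Ndufa1, Ndufv2, Uqcrc2, Cox5a and Suclg1) and 2 had them all below (Idh3a and Fh1). Among all genes 12.2% were apart in the first way and 9.94% in the second, 22.2% in all, and 7 of 40 members is not above that share. Values of the members were more scattered in spleen, with a median SD of 0.22 in LN and 0.43 in spleen, or 0.17 over spleen replicates 1 to 3. Among all genes these medians were 0.26, 0.42 and 0.22. Spleen replicate 4 was the lowest of 8 arrays for 21 members (52.5%), against 35.8% of all genes, and the highest for 13 (32.5%), against 26.3%.

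Each of 2 BeadChips carried arrays of both groups, the first replicates 1 and 2 and the second replicates 3 and 4. Within the first, 4 members were called, all higher in LN (Ndufa1, Ndufv2, Uqcrh and Cox5a), against 22% of all genes (10.7% higher, 11.3% lower). The second, which holds spleen replicate 4, gave 0 called members, against 4.37% of all genes. Cox5a had a fold of 0.96 within the first and 1.66 within the second, and Idh3a -0.57 and -0.87. With the BeadChip as a block 7 members were called, 4 higher (Cox5a, Ndufv2, Uqcrc2 and Suclg1) and 3 lower (Idh3a, Fh1 and Uqcrq), where 21.1% of all genes were called, 11.2% higher and 9.9% lower.

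The coactivators of mitochondrial gene expression held the largest difference of the mitochondrial regulators. Of 15 listed regulators 13 were tested, and 2 changed. Over all genes tested 15.6% were called, and 2 of 13 is not above that share. Ppargc1a, the coactivator PGC-1alpha that drives mitochondrial biogenesis, was detected on 0 LN and 4 spleen arrays, with log2 intensities of 4.44, 4.51, 4.67 and 4.70 in LN cells and of 6.73 to 7.52 in splenic cells. Spleen exceeded LN at least 3.31-fold, the mean of the spleen arrays being set against the LN arrays at the detection limit (adjusted p = 4.82e-05). A further probe of Ppargc1a was detected on 0 LN and 0 spleen arrays, so this difference rests on the other probe alone. Its relative Ppargc1b was detected on 4 LN and 0 spleen arrays, at 5.99, 6.19, 6.91 and 5.78 in LN cells and 4.67, 5.22, 5.37 and 5.43 in splenic cells. LN exceeded spleen at least 1.59-fold (adjusted p = 0.0325). Both genes passed the detection filter only through the group where they were high. Their p-values and calls therefore describe the values and are not separate support for a difference. The call of Ppargc1a held in 20 of the 20 alternative settings in which it was tested and that of Ppargc1b in 12 of 20; neither gene was tested where detection on all 8 arrays was required.

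The DNA-binding factors that work with these coactivators were not called in the 8-array comparison. Nrf1, nuclear respiratory factor 1, had a fold of -0.65 ± 0.24 (adjusted p = 0.0950) and was called lower with the replicate block (adjusted p = 0.0381). Its second, dimmer probe had 6.38, 6.85, 6.36 and 6.63 in LN cells and 8.04, 8.26, 8.27 and 7.58 in splenic cells, a fold of -1.48 ± 0.24 (adjusted p = 0.00233 over all probes). Gabpa, an ETS factor, had -0.35 ± 0.24, the estrogen-related receptor Esrra 0.23 ± 0.16, and Tfam, which packs and transcribes mitochondrial DNA, 0.11 ± 0.22. Of the 13 transcripts of mitochondrial DNA 2 were tested, ND1 of complex I at -0.03 ± 0.21 and CYTB of complex III at -0.05 ± 0.19, and 0 were called.

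Promoter windows, from 250 bases before to 50 after a RefSeq start, were given for 32 of the 43 members. Their median GC content was 59.8%, against 52.7% of all windows, and their median number of CpG steps 20, against 7. The NRF-1 motif, GCGCA and GCGC with any base between them, searched like the others on both strands, was in the windows of 5 of 32 members (15.6%: Ndufa5, Ndufs6, Sdha, Sdhd and Uqcrc1) and of 5.19% of 27025 genes. The ETS motif CCGGAAG was in 5 members (15.6%) and 9.93% of genes, the CRE motif TGACGTCA in 4 (12.5%) and 2.03%, and the ERR motif TCAAGGTCA in 1 (3.13%) and 0.466%. A match is a run of letters and not evidence of binding. None of the 5 genes with an NRF-1 match was called, and 1 of them, Sdha, was not tested. The matches are shown, with the motif in capitals and 10 bases on either side, because Nrf1 had the largest fold of the DNA-binding factors above. Each stretch is printed on the strand of its gene. For Ndufs6 and the first match of Uqcrc1 the motif lies on the opposite strand, so the capitals show its reverse complement.
Ndufa5, chr6:24527697-24527726, minus strand: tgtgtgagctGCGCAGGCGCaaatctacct
Ndufs6, chr13:73328479-73328508, minus strand: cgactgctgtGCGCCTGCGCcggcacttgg
Sdha far match, chr13:74350319-74350348, minus strand: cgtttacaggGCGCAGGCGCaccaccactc
Sdha middle match, chr13:74350276-74350305, minus strand: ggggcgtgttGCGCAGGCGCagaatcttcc
Sdha near match, chr13:74350231-74350260, minus strand: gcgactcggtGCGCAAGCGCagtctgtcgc
Sdhd, chr9:50603909-50603938, minus strand: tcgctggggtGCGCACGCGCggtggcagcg
Uqcrc1 first match, chr9:108936643-108936672, plus strand: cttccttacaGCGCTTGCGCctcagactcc
Uqcrc1 second match, chr9:108936668-108936697, plus strand: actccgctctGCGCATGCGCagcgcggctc

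The 250 bases before a start of Ppargc1a are given beside those of Cox5a, since it was the regulator with the largest fold. They hold 5 CpG steps, in capitals, and have a GC content of 48%.
Ppargc1a, chr5:51567726-51567975, minus strand: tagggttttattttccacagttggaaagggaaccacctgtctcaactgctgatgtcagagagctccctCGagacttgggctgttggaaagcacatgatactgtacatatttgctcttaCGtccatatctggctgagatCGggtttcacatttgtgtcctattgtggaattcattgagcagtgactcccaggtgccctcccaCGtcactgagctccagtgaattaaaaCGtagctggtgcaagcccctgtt

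A few single genes of inner membrane carriers and redox enzymes next to the chain were higher in LN. Their counts stand beside 15.6% of all genes called in either direction. Of 13 listed carriers and channels 10 were tested and 2 changed, both higher in LN. Slc25a20, which brings acylcarnitines into the matrix for fatty acid oxidation, was 12.24, 12.07, 11.90 and 12.02 in LN cells and 11.08, 10.79, 10.82 and 9.38 in splenic cells, a fold of 1.54 ± 0.33 (adjusted p = 0.00932), or 1.16 without spleen replicate 4. Slc25a10, the dicarboxylate carrier that exchanges malate and succinate for phosphate, was 9.59 to 10.21 in LN cells and 8.14, 8.04, 8.63 and 9.60 in splenic cells, a fold of 1.31 ± 0.33 (adjusted p = 0.0231). The groups of Slc25a10 met at spleen replicate 4. Of 9 tested genes of fatty acid oxidation 1 changed, Etfdh, which passes electrons from that pathway to coenzyme Q. It was higher in LN by 0.87 ± 0.18 (adjusted p = 0.00694), at 9.36 to 9.71 in LN cells and 8.43 to 8.77 in splenic cells.

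Among genes that link endotoxin to the TCA cycle, 9 of 13 were tested and 2 changed, where 15.6% of all genes were called. Idh1, the cytosolic NADP-dependent isocitrate dehydrogenase, was 10.03, 10.02, 9.95 and 10.05 in LN cells and 8.58, 8.70, 8.21 and 7.79 in splenic cells. Its fold of 1.69 ± 0.22 (adjusted p = 0.000563) lay opposite in sign to that of Idh3a. Sucnr1, the cell surface receptor of succinate, was detected on 0 LN and 4 spleen arrays, at 4.61 to 5.04 in LN cells and 7.38 to 8.05 in splenic cells. Spleen exceeded LN at least 4.76-fold (adjusted p = 3.53e-05). Sucnr1 passed the detection filter only through the spleen arrays, so its p-value and call are not separate support for a difference. Acod1, which makes itaconate from a TCA intermediate, had a fold of -0.58 ± 0.34 (adjusted p = 0.315). Sod2, the matrix superoxide dismutase, had 1.17 ± 0.41 (adjusted p = 0.0889, and 0.0404 with the replicate block).

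Prdx3, the peroxiredoxin of the matrix, was the 1 called gene of 5 tested mitochondrial antioxidant genes, against 15.6% of all genes. It was 9.21, 8.93, 9.08 and 9.25 in LN cells and 7.66, 7.98, 7.92 and 7.67 in splenic cells, a fold of 1.31 ± 0.18 (adjusted p = 0.000865). The groups did not overlap, and spleen replicate 4 was within the range of the other spleen arrays.

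The remaining lists held few calls, where 15.6% of all genes were called. Of 23 tested assembly factors 1 changed, Sco1, a copper chaperone of complex IV, at -0.74 ± 0.21 (adjusted p = 0.0386), and the list's median was -0.0039. Of 7 tested genes of pyruvate entry 0 were called, with Pdhb of pyruvate dehydrogenase furthest from 0 at -0.50 ± 0.20 (adjusted p = 0.139). Of 6 tested genes of coenzyme Q synthesis 0 were called, with Coq9 at 0.64 ± 0.27 (adjusted p = 0.156). Of 68 tested mitochondrial ribosomal protein genes 0 were called, with a median of 0.08 and Mrps7 furthest from 0 at 0.83 ± 0.25 (adjusted p = 0.0510). Coq9 and Mrps7 were called higher with the replicate block and without spleen replicate 4.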

How the data were processed

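Total RNA of 8 sorted samples was hybridised as biotinylated cRNA to Illumina BeadChips, per the labels. The deposited table holds bead intensity, on a linear scale and not normalized, and detection p-values beside them, per the file headers. The authors' deposited processed table is in log2 units with equal quantiles in every array, as the values show. The submitters' processing notes name Partek, giving it no role.

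Of 45281 probes 34885 had 1 symbol, 18 several and 10378 none. Intensities were normalized with neqc (limma 3.58.1, R 4.3.3, offset 16, negative controls inferred from the detection p). Probes with p under 0.01 on at least 4 of 8 arrays were kept (14726) and the brightest stood for its gene (8252 genes). Groups were compared with lmFit and eBayes (intensity trend), and p-values adjusted by Benjamini-Hochberg. A gene detected on 0 arrays of a group is given as "at least N-fold", against the array's detection limit or its own signal, whichever was higher. The model was tested on simulated data. Both organs came from the same mice, per the labels, and same-numbered arrays deviated together with correlations of 0.31, 0.57, 0.27 and 0.54. Replicate numbers were therefore taken as pairs in the replicate-block settings only. The main 8-array comparison used no block and no pairing. Same-numbered arrays also share a BeadChip, and differently numbered arrays of 1 BeadChip had 0.41, 0.58, 0.42 and -0.18, so number and BeadChip are not told apart by these values. Highest array correlation was 0.993, and at most 0.0022% of probes had equal intensities between arrays, so no array was a copy of another array's values. Whether arrays shared an RNA source cannot be told from these values. Plots used Python 3.11.15, pandas 2.3.3 and matplotlib 3.10.9; labels were read with jsonlite 2.0.0. The number of arrays limits the precision.

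The members and lists were chosen with earlier results of these data known. Genes were named by rule: called members, the highest and lowest fold of each complex, the 3 members whose probes differ most, called genes of each list (or its largest fold) and 8 regulators or endotoxin-linked genes; per-array values of members with groups apart were picked after their values were seen. Alternatives covered background, scaling, filter, probe choice, trend, blocks, BeadChip and each array left out; 2 were added after seeing spleen replicate 4.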

Additional observations from a re-analysis of the deposited data

Results flagged for a closer look

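For 74 genes, the plasmacytoid markers Irf7 and Tlr7 among them, 148 groups of 4 arrays were examined for an array far from the other 3. In all 12 were found, where chance gives about 1 in 20. The groups share the same arrays and are not independent. Of these 8 were on spleen replicate 4 and 6 were members. On spleen replicate 4, log2 intensity was far below the other spleen arrays for Ndufa1 (9.40), Cox5a (10.56), Suclg1 (10.93), Sco1 (8.87), Slc25a20 (9.38) and Tlr7 (8.82), and far above them for Ndufv1 (11.40) and Irf7 (14.65). In LN, Ndufb9 was low on replicate 3 (6.53), Atpif1 on replicate 1 (13.11) and Sucnr1 on replicate 2 (4.61), and Cox7a2 was high on replicate 2 (7.78). Sucnr1 was below the detection limit on all LN arrays.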

How the results depend on the processing

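In 21 alternative settings the 2 called members kept their sign, Cox5a at 0.87 to 1.66 and Idh3a at -0.87 to -0.47; the calls held in 15 (adjusted p 9.9e-05 to 0.155) and 10 (adjusted p 0.00908 to 0.299). Of the other members 10 gained a call in at least 1 setting, 28 were called in none, and 19 folds changed sign in at least 1. The count of members called, 2 with 8 arrays, was 0 with median scaling and within the second BeadChip, 1 with no filter, 4 with the mean of probes and within the first BeadChip, 5 with the replicate block, 7 with the BeadChip block, and 12 with either block once spleen replicate 4 was out. Leaving out 1 array gave 0 to 6, the 6 without spleen replicate 4. Member probes called, 1 with 8 arrays, were 0 with median scaling and within the second BeadChip, 2 with detection on all 8 arrays or no trend, 4 within the first BeadChip, 5 with the replicate block, 6 with the BeadChip block, 11 with the replicate block and no pair of replicate 4, 14 with the BeadChip block and no spleen replicate 4, and 0 to 7 on leaving out 1 array. All genes called, of 8252, were 1285 (15.6%) with 8 arrays and 939 (11.4%) with median scaling. They were 1816 (22%) within the first BeadChip and 361 (4.37%) within the second. The replicate block gave 1745 (21.1%) and the BeadChip block 1741 (21.1%), or 2618 (31.7%) and 2767 without spleen replicate 4. With the mean of probes 709 genes were called higher and 685 lower, and with no filter 555 and 523 of 19057. Leaving out 1 array gave 889 to 1988, the 1988 without spleen replicate 4. Over all passing probes 12.4% were called with 8 arrays. Their share in the other settings is not given here, so the member probe counts are description only. With median scaling 66.5% of calls were higher in LN, against 51.3%. The cause of these shifts was not tested. With 4 arrays a group the intervals of 29 of 40 members lay within 2-fold, and those of the others, the 2 called members among them, reached past it. With median scaling 16 of 40 lay within 2-fold.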
